A study of Mus musculus with 9 samples.

Results

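The RIG-I-like receptors and the proteins that act directly on their signal are described here as 10 genes, chosen by name and pathway role and read from the tables of all 9 libraries. They were Ddx58, Ifih1 and Dhx58 (the receptors RIG-I, MDA5 and LGP2), Mavs, Trim25, Rnf135, Tbk1, Ikbke, Sike1 and Nlrx1. The choice was made with earlier results of these data known. Counts among the 10 genes are therefore no independent comparison with all tested genes. All 10 were among the 18188 genes listed, and all 10 passed the filter on low values. The libraries held poly(A) RNA from mouse splenic CD8+ T cells, 4 of them labelled with a knockout of the RIG-I gene (Rig1 KO) and 5 labelled wild type (WT). The labels give no strain, age, treatment or infection, and do not say which part of the gene was removed or whether the deletion was limited to T cells. They name no separate animals, so the p-values measure the spread between these libraries, which may be technical.

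RIG-I-like receptors are helicases of the cytosol that bind viral RNA. RIG-I and MDA5 carry the caspase recruitment domains that pass the signal to MAVS on mitochondria, while LGP2 lacks them and tunes the other two. Ubiquitin ligases such as TRIM25 and Riplet, the product of Rnf135, modify or cluster RIG-I before it engages MAVS. The kinases TBK1 and IKKε, the product of Ikbke, then phosphorylate IRF3, which induces type I interferon, and interferon in turn raises the genes of the receptors themselves. SIKE1 binds and restrains these kinases, and NLRX1 is a mitochondrial protein described as a brake on MAVS.

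The start regions of Ddx58, the targeted gene, and Ifih1 are shown, and their part in the transcript levels was not tested. Each is the stretch of 250 bases before the RefSeq start on build GRCm38.p6, given 5′ to 3′ on the strand of the gene, at chr4:40239826-40240075 (minus strand) and chr2:62646256-62646505 (minus strand). Capitals mark matches of the interferon-type motifs searched, and the Ifih1 stretch holds none.
Ddx58: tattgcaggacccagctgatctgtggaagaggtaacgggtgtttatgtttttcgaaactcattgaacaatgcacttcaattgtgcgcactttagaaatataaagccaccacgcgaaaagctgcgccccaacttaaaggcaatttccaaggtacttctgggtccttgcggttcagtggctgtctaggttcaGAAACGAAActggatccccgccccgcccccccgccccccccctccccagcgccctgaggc
Ifih1: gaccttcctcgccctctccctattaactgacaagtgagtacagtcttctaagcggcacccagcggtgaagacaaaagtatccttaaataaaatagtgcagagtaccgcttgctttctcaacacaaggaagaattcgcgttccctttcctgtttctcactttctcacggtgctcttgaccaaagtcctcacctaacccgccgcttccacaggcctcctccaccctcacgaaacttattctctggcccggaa
The motifs were GAAANNGAAA, the core of the interferon-stimulated response element, and its variant with a shorter spacer, GAAANGAAA, added after the Ddx58 window had been read. Both strands were searched in windows of 300 bases that also took in the first 50 bases of the transcript. RefSeq windows were found for 8 of the 10 genes (not Dhx58 and Sike1), and only Ddx58 and Ifih1 among these 8 held GAAANNGAAA. In both the match lay after the start, as TTTCGATTTC from base 3 of the Ddx58 transcript and as GAAACAGAAA from base 33 of the Ifih1 transcript. The GAAANGAAA match in capitals above began 60 bases before the Ddx58 start. Of 32851 mouse windows of the same length, 3.44% held GAAANNGAAA and 3.17% held GAAANGAAA. A match describes the letters and shows no binding.

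The values are in TPM, transcript abundance corrected for gene length and scaled to 1 total in every library. The reads behind them were recovered as the smallest whole numbers that fit, so they can be lower bounds. The libraries held 15509876 to 17866952 recovered reads in Rig1 KO (n = 4) and 15496262 to 17893558 in WT (n = 5). Defining markers of CD8+ T cells were high in all 9 libraries, with a sum over 8 genes of 7306 to 8015 TPM in Rig1 KO and 5353 to 6133 TPM in WT. Markers of B cells summed to 91.8 to 189 TPM in Rig1 KO and 157 to 1092 TPM in WT. Those of natural killer cells summed to 262 to 314 TPM in Rig1 KO and 78.6 to 222 TPM in WT. Monocyte and macrophage markers summed to 942 to 1063 TPM in Rig1 KO and 503 to 1146 TPM in WT, and those of basophils and mast cells to 207 to 404 TPM in Rig1 KO and 11.7 to 46.3 TPM in WT. Dendritic cell markers summed to 62.4 to 72.0 TPM in Rig1 KO and 20.1 to 78.0 TPM in WT. Neutrophil markers summed to 134 to 205 TPM in Rig1 KO and 98.9 to 596 TPM in WT. For CD4+ T cells the sums were 6.66 to 11.3 TPM in Rig1 KO and 10.1 to 43.9 TPM in WT. Erythroid and platelet markers summed to 192 to 330 TPM in Rig1 KO and 248 to 374 TPM in WT. At an adjusted p of 0.05 (limma), 2 of 5 tested in that list were higher and 3 lower in Rig1 KO. For neutrophils 1 of 7 was higher and 2 lower, so these sums mix opposite changes. Higher were 8 of 8 CD8+ T cell, 5 of 5 basophil and mast cell, 4 of 6 natural killer, 1 of 7 monocyte and macrophage and 1 of 6 dendritic cell markers. Lower were 6 of 7 B cell and 1 of 2 CD4+ T cell markers. Among all tested genes 33.5% were higher and 12.2% lower. No marker listed was at 0 in every library. In bulk RNA, fewer cells of a type and less RNA per cell cannot be told apart. The part of these other cells in the results was not tested. Values with a B cell covariate are given for some genes. That covariate largely follows genotype, so the part of B cells cannot be told apart from genotype.

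Of 10540 genes tested with limma, 45.7% passed an adjusted p of 0.05, 33.5% as higher and 12.2% as lower in Rig1 KO. Of the 10 pathway genes, 7 were higher (Dhx58, Mavs, Trim25, Rnf135, Tbk1, Ikbke and Sike1), 1 was lower (Ddx58) and 2 did not pass (Ifih1 and Nlrx1). Their median log2 fold change was 0.31, against 0.13 for all tested genes. The share of higher calls depends on the scaling of the libraries. Rig1 KO 3 and 4 had a median of 1.75 and 1.79 reads per TPM after each library total was brought to 1 size, against 1.91 and 1.95 in Rig1 KO 1 and 2 and 1.91 or more in WT. Median ratio scaling, which brings the median of all tested genes to 0.01, left 4 genes higher (Mavs, Trim25, Ikbke and Sike1) and Ddx58 lower, against 45.1% called, 23.7% higher and 21.4% lower, among all tested genes. Quantile scaling also left 4 higher and 1 lower, against 45.1% called, 24.3% higher and 20.8% lower. Recovered reads scaled to the library total left 6 higher and 1 lower, all but Tbk1 of the 7, against 48.1% called, 29.6% higher and 18.6% lower. Ddx58, Mavs, Trim25, Ikbke and Sike1 passed under every one of the 22 alternatives tried, while Dhx58, Rnf135 and Tbk1 lost their call under some of them. The libraries of the groups did not overlap for 7 of the 10 genes in TPM as deposited, against 38.1% of all tested genes. Ddx58 was lower and the other 6 higher in Rig1 KO, against 28.0% higher and 10.1% lower among all tested genes. After median ratio scaling, Ikbke (Rig1 KO 4 at 195.1, WT 1 at 195.3) and Rnf135 (Rig1 KO 2 at 7.17, WT 3 at 7.32) overlapped.

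**Figure D1:**
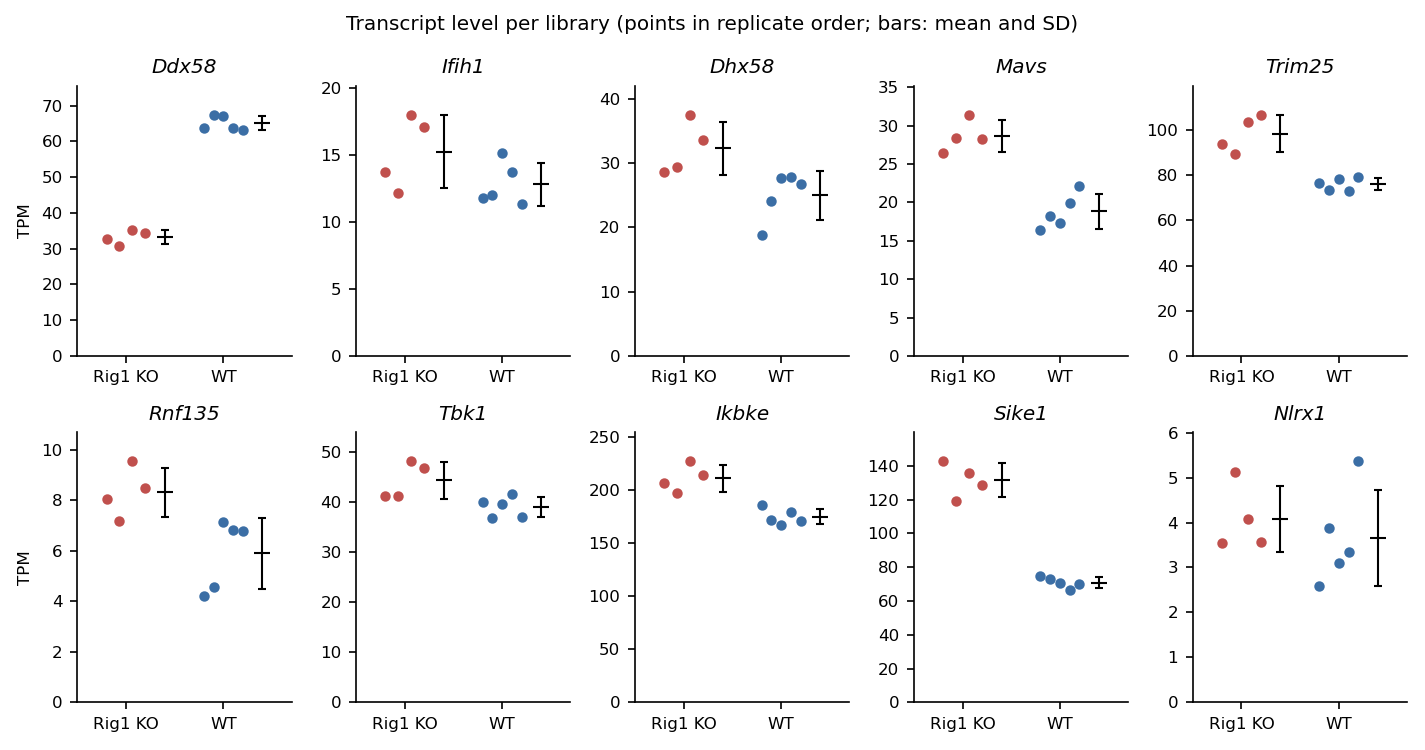
Transcript level (TPM) of the 10 genes in each library, with Rig1 KO on the left and WT on the right of each panel; points are libraries in replicate order and bars give the mean and SD. Ddx58 lies at 30.6 to 35.2 TPM in Rig1 KO and 63.2 to 67.4 TPM in WT, Sike1 shows the opposite arrangement, and the points of Ifih1, Tbk1 and Nlrx1 overlap between the groups.

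Ddx58, the transcript of the targeted receptor, fell to about the same level in each Rig1 KO library. It had 32.8, 30.6, 35.2 and 34.5 TPM in Rig1 KO 1 to 4, against 63.9, 67.4, 67.1, 63.8 and 63.2 TPM in WT 1 to 5. These values rest on 1623 to 1893 reads in Rig1 KO and 3187 to 3716 reads in WT. The mean in Rig1 KO was 51.1% of that in WT, with a log2 fold change of -0.95 (SE 0.055, adjusted p = 4.91e-07, limma). The two-sided exact permutation p was 0.00794, and the assignments of 9 libraries to groups of 4 and 5 allow no smaller one. A fall at least this large was seen in 3.09% of tested genes. With a covariate for the mean level of B cell markers, its log2 fold change was again -0.95 (adjusted p = 0.00016, limma). The covariate was 2.82 to 3.93 in Rig1 KO and 3.76 to 6.32 in WT, on log2(TPM + 1). It largely follows genotype, so this fit cannot separate B cell content from genotype. Reads were summed over the whole gene, so the remaining transcript says nothing about whether functional RIG-I was made.

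MDA5 and LGP2, the other two receptors, did not follow Ddx58 downward. Ifih1, which encodes MDA5, the sensor of long double-stranded RNA, had 13.8, 12.2, 18.0 and 17.1 TPM in Rig1 KO 1 to 4, against 11.8, 12.1, 15.2, 13.8 and 11.3 TPM in WT 1 to 5. Its groups overlapped, and the log2 fold change of 0.23 did not pass (95% interval -0.04 to 0.50, adjusted p = 0.154, limma). It passed without Rig1 KO 2 (0.32, adjusted p = 0.0467) and was 0.02 (adjusted p = 0.908) without Rig1 KO 3 and 4, which held its highest values. Dhx58, which encodes LGP2, had 28.6, 29.3, 37.5 and 33.6 TPM in Rig1 KO 1 to 4, against 18.8, 24.0, 27.6, 27.8 and 26.7 TPM in WT 1 to 5. All Rig1 KO libraries lay above all WT libraries, by a margin of less than 1 TPM between the lowest Rig1 KO and the highest WT value. The log2 fold change of Dhx58 was 0.36 (SE 0.122, adjusted p = 0.0325, limma), but 0.24 (adjusted p = 0.0812) after median ratio scaling. It also missed the threshold without Rig1 KO 3 (0.29, adjusted p = 0.0984), without Rig1 KO 4 (0.34, adjusted p = 0.0821) and without WT 2 (0.35, adjusted p = 0.0622). An annotated antisense gene overlaps Dhx58, and its reads cannot be told apart without strand.

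Ratios of 2 genes in the same library do not depend on how that library was scaled, and they separated Ddx58 from both relatives. The TPM values rest on genomic spans with introns, so a ratio compares the groups and not the levels of its 2 genes. The log2 ratio of Ddx58 to Ifih1 was 1.25, 1.33, 0.97 and 1.01 in Rig1 KO 1 to 4, against 2.44, 2.48, 2.14, 2.21 and 2.48 in WT 1 to 5. The difference was -1.21 (exact permutation p = 0.00794, two-sided, adjusted p = 0.0159 over the 6 ratios computed), and the groups did not overlap. Without any single WT library the adjusted p was 0.0571 (exact permutation test). The log2 ratio of Ddx58 to Dhx58 averaged 0.05 ± 0.12 in Rig1 KO (SD, n = 4) and 1.39 ± 0.24 in WT (SD, n = 5), with the same exact p of 0.00794 and adjusted p of 0.0159. Between Ifih1 and Dhx58 the log2 ratio averaged -1.09 ± 0.12 in Rig1 KO and -0.96 ± 0.21 in WT, a difference of -0.13 within their spread (exact permutation p = 0.302, adjusted p = 0.362).

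**Figure D2:**
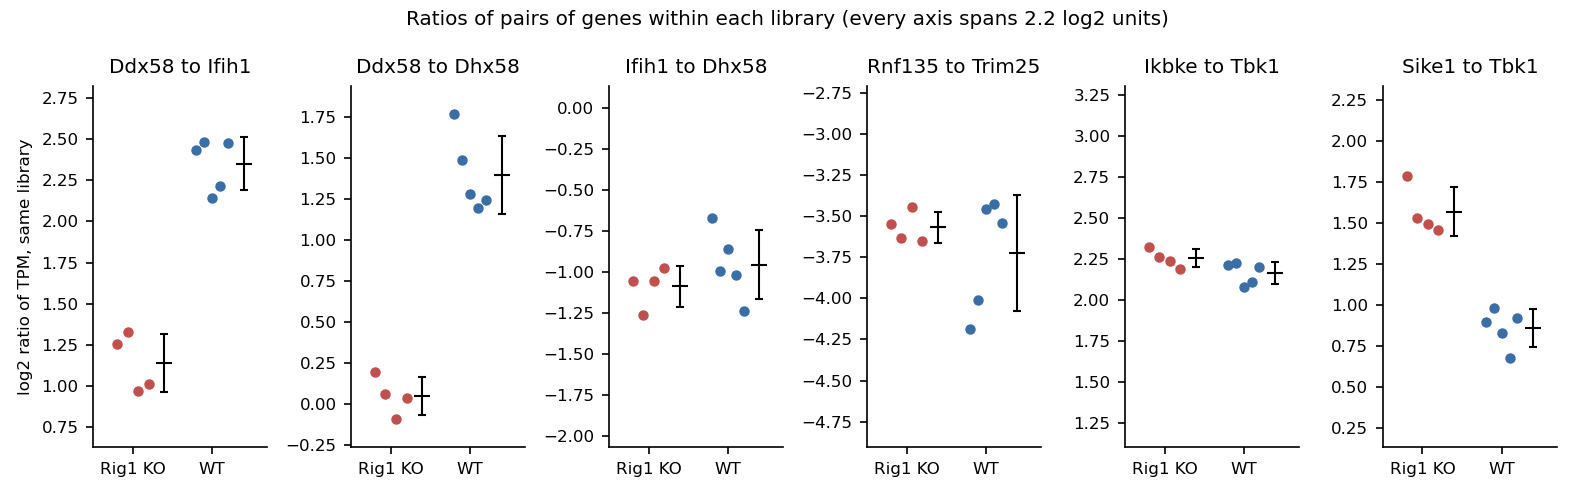
Log2 ratio of the TPM values of 2 genes within each library for 6 gene pairs, with Rig1 KO left of WT; points are libraries, bars give the mean and SD, and every axis spans the same width. Ddx58 to Ifih1, Ddx58 to Dhx58 and Sike1 to Tbk1 separate the groups, while Ifih1 to Dhx58, Rnf135 to Trim25 and Ikbke to Tbk1 overlap.

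Mavs, the adaptor on the mitochondrial membrane that all signalling through RIG-I and MDA5 passes, rose in Rig1 KO. It had 26.4, 28.4, 31.4 and 28.2 TPM in Rig1 KO 1 to 4, against 16.5, 18.2, 17.3, 19.9 and 22.2 TPM in WT 1 to 5. Every Rig1 KO library lay above every WT library, and WT 5 was the nearest of the WT libraries. The mean was 1.52-fold that of WT, with a log2 fold change of 0.58 (SE 0.089, adjusted p = 0.00042, limma), and 10.1% of tested genes rose at least as much. The 514 to 590 reads in Rig1 KO and 347 to 450 reads in WT do not separate the isoforms of Mavs.

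The ligases that act on RIG-I differed in how firmly they moved. Trim25, which attaches ubiquitin chains to the caspase recruitment domains of RIG-I, had 94.0, 89.2, 103.7 and 106.7 TPM in Rig1 KO 1 to 4, against 76.7, 73.5, 78.4, 73.2 and 79.0 TPM in WT 1 to 5. Its groups did not overlap, and its log2 fold change was 0.36 (SE 0.062, adjusted p = 0.000863, limma) with 2241 to 3150 reads in a library, or 0.24 (adjusted p = 0.00145) after median ratio scaling. Rnf135, whose product binds RIG-I filaments on RNA, had 8.04, 7.19, 9.54 and 8.48 TPM in Rig1 KO 1 to 4, against 4.21, 4.57, 7.15, 6.81 and 6.79 TPM in WT 1 to 5. WT 3 came within 0.05 TPM of Rig1 KO 2, and WT 1 and 2 lay well below the other 3 WT libraries. The log2 fold change of Rnf135 was 0.45 (SE 0.15, adjusted p = 0.0302, limma), but 0.34 (adjusted p = 0.0579) after median ratio scaling. Its adjusted p was 0.0537 without Rig1 KO 1, 0.0869 without Rig1 KO 3, 0.0698 without Rig1 KO 4, 0.0569 without WT 1 and 0.0665 without WT 2, with log2 fold changes of 0.36 to 0.46. WT 1 and 2 were also the WT libraries with the lowest Dhx58. Their monocyte and macrophage marker sums were the lowest in WT (503 and 603 TPM, against 904 to 1146 TPM in WT 3 to 5). Sums for natural killer cells (78.6 and 101 TPM), dendritic cells (20.1 and 26.3 TPM), and basophils and mast cells (21.8 and 11.7 TPM) were lowest there too. Those of B cells, CD4+ T cells, neutrophils, and erythroid cells and platelets were lowest in WT 3, and that of CD8+ T cells in WT 5. The part of any of these cells was not tested. Relative to Trim25, Rnf135 had a log2 ratio of -3.57 ± 0.10 in Rig1 KO (SD, n = 4) and -3.72 ± 0.35 in WT (SD, n = 5), with an exact permutation p of 0.437.

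Both kinases were higher in TPM, with a small change for each. Tbk1, the kinase found in most cells, had 41.3, 41.2, 48.1 and 46.9 TPM in Rig1 KO 1 to 4, against 40.0, 36.9, 39.6, 41.5 and 37.1 TPM in WT 1 to 5. WT 4 lay above Rig1 KO 1 and 2, and the log2 fold change was 0.18 (adjusted p = 0.0477, limma). After median ratio scaling it was 0.06 (adjusted p = 0.343), and it missed the threshold without any single one of Rig1 KO 3, Rig1 KO 4, WT 1, WT 2, WT 3 and WT 5 (0.14 to 0.19, adjusted p = 0.0671 to 0.128). The reads of Tbk1 numbered 2466 to 2666 in Rig1 KO and 2091 to 2705 in WT. Ikbke, the inducible relative of Tbk1, had 206.8, 197.4, 227.2 and 214.2 TPM in Rig1 KO 1 to 4, against 186.1, 172.5, 167.6, 179.3 and 170.8 TPM in WT 1 to 5. Its groups did not overlap in TPM as deposited, but Rig1 KO 4 lay below WT 1 after median ratio scaling (195.1 and 195.3). Its log2 fold change was 0.27 (SE 0.055, adjusted p = 0.00249, limma), or 0.14 (adjusted p = 0.0336) after median ratio scaling. Annotated antisense genes overlap Ikbke as well. The log2 ratio of Ikbke to Tbk1 was 2.25 ± 0.06 in Rig1 KO (SD, n = 4) and 2.17 ± 0.07 in WT (SD, n = 5), a difference of 0.09 that did not pass (exact permutation p = 0.0873, adjusted p = 0.131).

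Sike1, the suppressor of IKKε and TBK1, had the largest rise of the 10 genes. It had 142.6, 118.9, 135.8 and 128.8 TPM in Rig1 KO 1 to 4, against 74.6, 73.0, 70.4, 66.5 and 70.1 TPM in WT 1 to 5. The lowest Rig1 KO value stood well above the highest WT value. The mean was 1.85-fold that of WT, with a log2 fold change of 0.88 (SE 0.062, adjusted p = 2.00e-06, limma), and 3.54% of tested genes rose at least as much. Against Tbk1 in the same library, its log2 ratio was 1.57 ± 0.15 in Rig1 KO (SD, n = 4) and 0.86 ± 0.12 in WT (SD, n = 5), a difference of 0.71 (exact permutation p = 0.00794, adjusted p = 0.0159). Linear ratios of these TPM values, which rest on genomic spans, were 2.96 in Rig1 KO and 1.82 in WT, as geometric means. They compare the groups and not the levels of Sike1 and Tbk1. Per exon length Sike1 stood below Tbk1, at 58.5 against 164 in Rig1 KO and 32.4 against 148 in WT. Annotated exons cover 80.7% of the span of Sike1 and 9.69% of that of Tbk1. The part of exon length and of reads from introns in this order was not tested.

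Nlrx1 was the lowest of the 10 genes and its groups overlapped. It had 3.54, 5.13, 4.07 and 3.57 TPM in Rig1 KO 1 to 4, against 2.59, 3.89, 3.10, 3.35 and 5.36 TPM in WT 1 to 5. The highest library of all was WT 5 and the lowest WT 1. The log2 fold change was 0.14 (95% interval -0.22 to 0.50, adjusted p = 0.497, limma). It was 0.05 without Rig1 KO 2, 0.05 without WT 1, 0.26 without WT 5 and 0.28 without WT 4 and 5, and none of these passed (adjusted p = 0.129 to 0.838). With the B cell covariate it was 0.57 (adjusted p = 0.0818), and after median ratio scaling 0.04 (adjusted p = 0.849). Between libraries the coefficient of variation was 18.2% in Rig1 KO and 29.0% in WT, and counting error was at most 12.7%, with 62 to 121 reads behind each value. An annotated antisense gene overlaps Nlrx1 too.

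**Figure D3:**
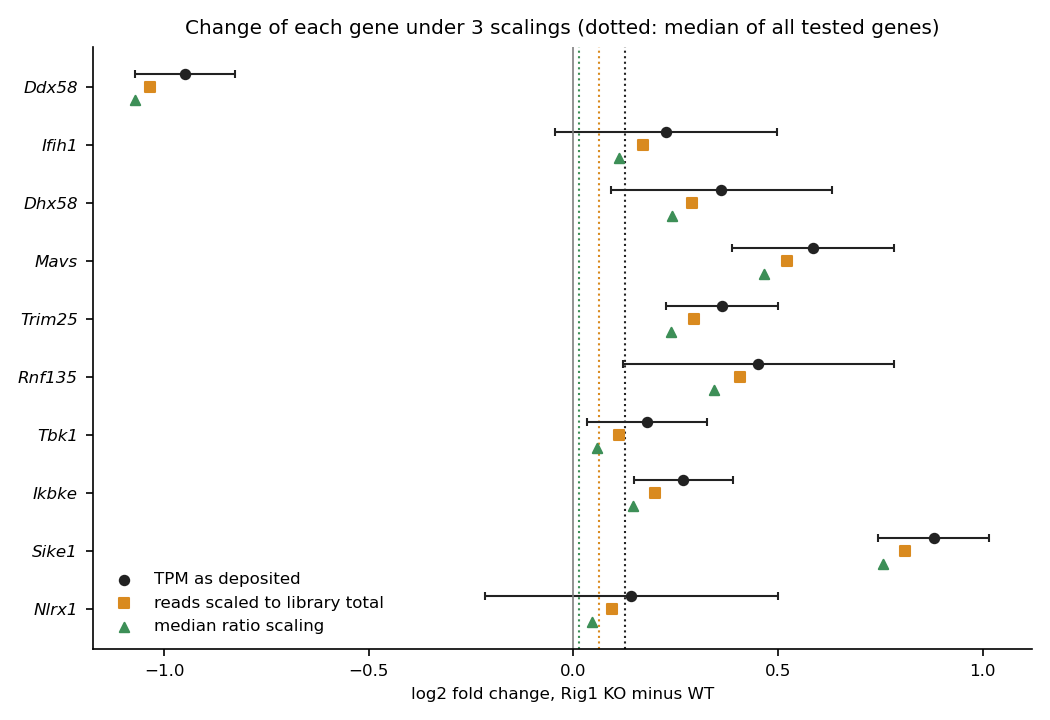
Log2 fold change (Rig1 KO minus WT, horizontal axis) of the 10 genes with TPM as deposited (circles, with 95% intervals from limma), as recovered reads scaled to the library total (squares) and after median ratio scaling (triangles); dotted lines mark the median of all tested genes under each scaling. Ddx58 at -0.95 and Sike1 at 0.88 lie far from the dotted lines under all 3 scalings, whereas Tbk1 lies beside them.

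Levels of different genes were compared per exon length, since the deposited lengths equalled the genomic span with introns. Reads were summed over the whole gene, so any reads from introns remain in these values. Such reads would raise most the genes whose exons cover little of the span, and their part was not tested. On this scale, TPM recomputed with exon lengths, Ikbke led in both groups with 212.8 ± 7.97 in Rig1 KO (SD, n = 4) and 181.1 ± 7.94 in WT (SD, n = 5), followed by Tbk1 with 164 ± 9.85 in Rig1 KO and 148 ± 7.23 in WT. Ddx58 came next in WT at 123 ± 5.06, above Trim25 at 102 ± 3.23. In Rig1 KO their order was turned, with Trim25 at 128 ± 7.93 and Ddx58 at 61.1 ± 2.39, where Ddx58 overlapped Sike1 at 58.5 ± 4.26. Sike1, Ifih1, Mavs and Dhx58 formed a run of neighbours in WT, from 32.4 ± 1.69 for Sike1 to 26.4 ± 3.90 for Dhx58, and each overlapped the next. In Rig1 KO that run broke up, with Sike1 above Mavs (42.9 ± 2.57), and Mavs above Ifih1 (33.8 ± 5.32) and Dhx58 (33.2 ± 3.53), which overlapped. Rnf135 stood below Dhx58 in both groups at 22.2 ± 2.12 in Rig1 KO and 16.2 ± 3.71 in WT, and Nlrx1 was lowest at 4.06 ± 0.807 in Rig1 KO and 3.72 ± 1.06 in WT. Annotated exons cover 80.7% of the span of Sike1, against 9.69% to 36.2% for the other 9 genes, and the level of Sike1 with another transcript's length was not tested. Ddx58 had 4.20 times the level of Ifih1 per exon length in WT and 1.81 times that level in Rig1 KO.

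**Figure D4:**
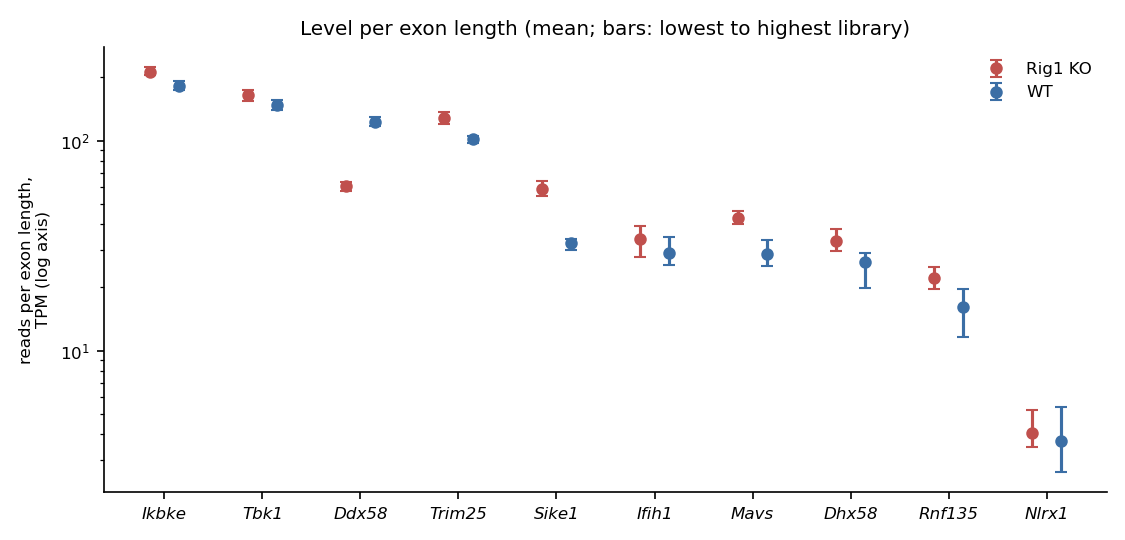
Level of each gene per exon length (TPM recomputed with exon lengths, log axis), with Rig1 KO left of WT for each gene and genes ordered by their level in WT; points are means and bars run from the lowest to the highest library. Ddx58 is the gene that is lower in Rig1 KO, at 61.1 against 123 in WT.

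The rest of the pathway was counted over 4 lists. The lists were chosen with earlier results of these data known, so their shares are no independent comparison with all tested genes. Among 13 cofactors of RNA sensing, 3 rose, 2 fell and 8 did not pass, which is 23.1% higher and 15.4% lower, near the 33.5% and 12.2% of all tested genes. Mex3c, a ligase that modifies RIG-I in mouse and human cells, fell to 21.4 ± 2.79 TPM in Rig1 KO (SD, n = 4), against 36.8 ± 1.83 TPM in WT (SD, n = 5), and Ppp1cc, a phosphatase subunit that releases RIG-I and MDA5 from inhibition, was the other that fell. The 3 that rose were Zyx, a cytoskeletal scaffold, Trim65, the ligase of MDA5, at 27.0 ± 0.965 TPM in Rig1 KO and 21.7 ± 2.90 TPM in WT, and Ywhae, the 14-3-3 chaperone that carries active RIG-I to membranes, at 107.6 ± 9.83 TPM in Rig1 KO and 89.3 ± 7.98 TPM in WT. The list's median log2 fold change was 0.12, beside 0.13 for all tested genes, and after median ratio scaling 1 rose and 5 fell, against 23.7% higher and 21.4% lower among all tested genes.

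Of 21 genes tested of the adaptor complex and the factors downstream of it, 7 rose, 3 fell and 11 did not pass. These shares, 33.3% higher and 14.3% lower, were near the 33.5% and 12.2% of all tested genes, and the median log2 fold change was 0.02. Irf3, the transcription factor that TBK1 activates, rose to 188.7 ± 5.74 TPM in Rig1 KO (SD, n = 4), against 128 ± 10.3 TPM in WT (SD, n = 5). Sting1, the adaptor of the cytosolic DNA pathway that uses the same kinase, rose to 186 ± 13.9 TPM in Rig1 KO, against 122 ± 9.21 TPM in WT. Traf5, a signalling adaptor, fell to 22.9 ± 0.843 TPM in Rig1 KO, against 30.5 ± 1.01 TPM in WT, and the NF-κB genes Rela (127 ± 6.29 TPM in Rig1 KO and 155.6 ± 7.09 TPM in WT) and Nfkb1 were the other 2 that fell. After median ratio scaling 6 rose and 7 fell, against 23.7% higher and 21.4% lower among all tested genes. Without Rig1 KO 3 and 4 the number that fell was 5, against 1382 of all 10540 tested genes.

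Of 22 negative regulators tested, 1 rose, 7 fell and 14 did not pass, which is 4.55% higher and 31.8% lower, against 33.5% and 12.2% of all tested genes. Tnfaip3, which encodes A20, fell to 117 ± 7.44 TPM in Rig1 KO (SD, n = 4), against 1843 ± 177 TPM in WT (SD, n = 5), and is also a gene induced by NF-κB. The deubiquitinase gene Otud1 fell to 78.2 ± 4.98 TPM in Rig1 KO, against 142 ± 11.7 TPM in WT, and Gpatch3, which interferes with assembly on MAVS, fell to 9.96 ± 0.862 TPM in Rig1 KO, against 18.4 ± 3.08 TPM in WT. Rnf5, a ligase that targets MAVS and STING for degradation, was the 1 that rose, to 149.6 ± 9.27 TPM in Rig1 KO, against 104.6 ± 7.84 TPM in WT. The median log2 fold change of the list was near 0 at -0.0045, and after median ratio scaling 1 rose and 10 fell, while the lower share of all tested genes under that scaling was 21.4% and the higher share 23.7%.

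Of 17 tested genes of the interferon output, 13 rose, 0 fell and 4 did not pass, with a median log2 fold change of 0.55. The share that rose was 76.5%, against 33.5% of all tested genes, and after median ratio scaling 10 rose and 0 fell, against 23.7% and 21.4%. Usp18, which restrains the interferon receptor, rose to 10.9 ± 2.35 TPM in Rig1 KO (SD, n = 4), against 3.35 ± 0.714 TPM in WT (SD, n = 5). Ifit1, which binds viral RNA caps, rose to 48.4 ± 8.12 TPM in Rig1 KO, against 23.7 ± 2.21 TPM in WT, and the antiviral GTPase gene Mx1 to 71.3 ± 13.4 TPM in Rig1 KO, against 30.6 ± 4.73 TPM in WT. Ccl5, a chemokine that memory CD8+ T cells store without interferon, rose to 492.6 ± 75.7 TPM in Rig1 KO, against 154 ± 39.6 TPM in WT. Of the 25 symbols on the list 18 were analysed, and Ifnb1, Ifna2, Ifna4, Ifna5, Ifnl2, Ifnl3 and Cxcl10 were not analysed here. The 1 interferon gene examined was Ifna1, at 1 read in Rig1 KO 1, 1 read in WT 4 and 0 in the other 7 libraries. Without Rig1 KO 3 and 4 the number of output genes that rose was 8, against 2165 of all 10540 tested genes.

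**Figure D5:**
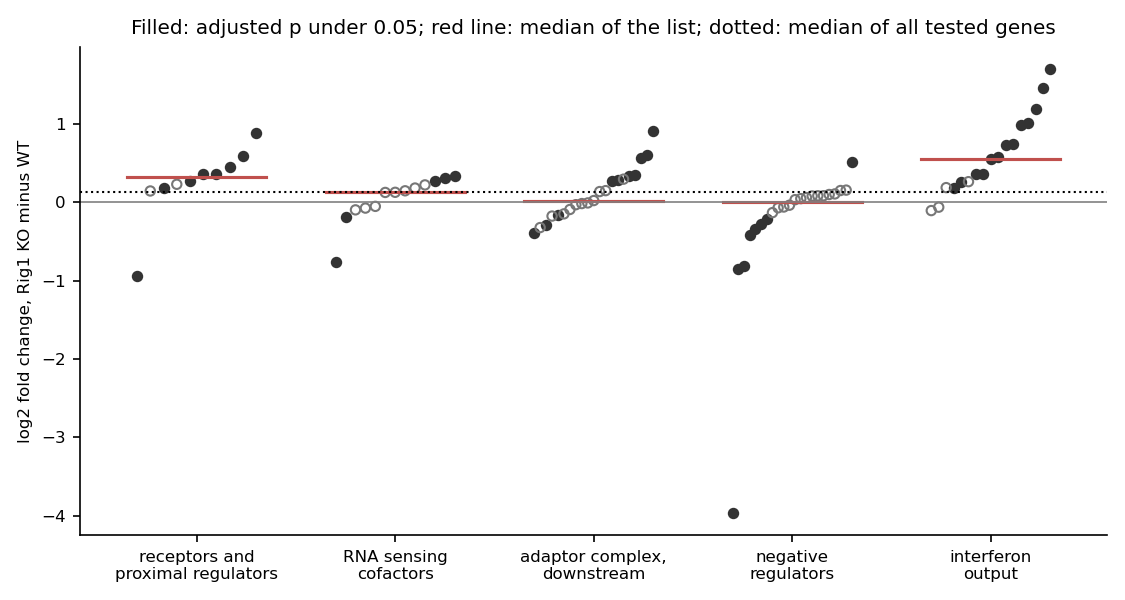
Log2 fold change (Rig1 KO minus WT, vertical axis) of every tested gene of the 10 described here and of the 4 wider pathway lists; filled points passed an adjusted p of 0.05, red lines mark the median of each list and the dotted line the median of all tested genes. The interferon output lies mostly above the dotted line, with a median of 0.55, and the lowest point is Tnfaip3 among the negative regulators.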

How the data were processed

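Poly(A) RNA-seq of splenic CD8+ T cells was compared between 4 Rig1 KO and 5 WT libraries, grouped by sample title. The authors deposited TPM values per gene, a unit the file headers name, 1 file for each library. The submitters' processing notes list fastp, featureCounts and the build mm39 (GRCm39). Their versions, the aligner and the annotation are not given in the sources used here. Reads were recovered as the smallest whole numbers in the ratios of the rescaled TPM values (relative tolerance 2e-11, 100% of genes). They are lower bounds where a gene's reads share a divisor, and counting errors cover counting only. For 99.1% of 11854 genes with at least 100 reads the implied length lay within 1% of the genomic span in GENCODE M21 (GRCm38), which supplied exon lengths. A gene was tested if 4 or more libraries reached 1 TPM. The test was limma 3.58.1 (R 4.3.3) on log2(TPM + 1), using its trend option, and p-values were adjusted over all tested genes by Benjamini-Hochberg. This scale understates the change of low genes. Exact permutation tests covered every assignment of libraries to groups. The genes and lists were chosen with earlier results of these data known. The text names the 10 genes, up to 4 genes of smallest p per list, the 3 genes most like Ddx58, and, after their values were seen, the remaining members of counts of 5 or fewer. Older symbols were matched through RefSeq synonyms. Promoters came from RefSeq (GRCm38.p6).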

Additional observations from a re-analysis of the deposited data

How the results depend on the processing

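Ddx58, Mavs, Trim25, Ikbke and Sike1 kept their direction and their adjusted p under 0.05 in all 22 alternatives run. Tbk1 lost its call in 15, Rnf135 in 10 and Dhx58 in 8 of 22, and no result among the 10 genes reversed. Genes higher among the 10 numbered 4 with the B cell covariate, median ratio scaling, quantile scaling, no filter and without Rig1 KO 3 and 4 together, and 4 to 8 leaving out single libraries (4 without WT 2, Rig1 KO 3 or Rig1 KO 4). The calls lost with the B cell covariate had log2 fold changes of 0.51 (Dhx58), 0.56 (Rnf135) and 0.18 (Tbk1), against 0.36, 0.45 and 0.18 without it. Genes called over all tested numbered 2911 with the B cell covariate (2288 higher, 623 lower), against 4817 (3526 higher, 1291 lower). The covariate largely follows genotype, so B cell content and genotype cannot be told apart in these counts. Lower genes numbered 2260 with median ratio scaling, 2193 with quantile scaling and 1956 with reads scaled to the library total. Without Rig1 KO 3 and 4, 2165 genes were higher and 1382 lower. Leaving out single libraries, 2835 to 3610 were higher and 1101 to 1285 lower. With no filter 3378 were higher and 1428 lower of 17934 tested, and with no trend 3492 and 1300. Totals without immunoglobulin, haemoglobin and mitochondrial genes gave 3755 and 1217, and leaving out WT 4 and 5 gave 3651 and 1103. Lower RNA sensing cofactors numbered 1 with the B cell covariate, no filter, no trend, totals without immunoglobulin, haemoglobin and mitochondrial genes and without WT 4 and 5, 4 with quantile scaling and reads scaled to the library total, and 5 with median ratio scaling and without Rig1 KO 3 and 4 (1 to 2 leaving out single libraries, with 1 without Rig1 KO 1, 2 or 4 or without WT 1, 3, 4 or 5). Higher cofactors numbered 1 with median ratio scaling and without Rig1 KO 3 and 4, and 5 without WT 4 and 5. Lower adaptor and downstream genes numbered 1 with the B cell covariate, 7, 8 and 6 with median ratio scaling, quantile scaling and reads scaled to the library total, and 5 without Rig1 KO 3 and 4 (2 to 4 leaving out single libraries). With the B cell covariate 2 negative regulators rose. Higher interferon output genes numbered 8 without Rig1 KO 3 and 4, and lower ones 0 to 1 leaving out single libraries, with 1 without Rig1 KO 1. The cause of these changes was not tested; the alternatives without 2 libraries were chosen after seeing the data.

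The labels do not say whether same-numbered libraries are paired. Their deviations from the group means correlated at 0.0972, -0.0601, -0.0996 and -0.0724, which cannot decide whether they share a day or batch. With the replicate block 4777 genes were called, 6 of the 10 genes were higher and Tbk1 lost its call (log2 fold change 0.16, adjusted p = 0.0722), and Nlrx1 had 0.26 (adjusted p = 0.0585). For the ratios the replicate block gave -1.18 (Ddx58 to Ifih1), -1.38 (Ddx58 to Dhx58) and 0.72 (Sike1 to Tbk1), where 4 pairs cannot give an exact p below 0.125. The adjusted p of each of these ratios (exact permutation test) was 0.0571 without any single WT library. It was 0.0357 without any single Rig1 KO library.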

Other observations

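The transcripts whose pattern over the 9 libraries was most like that of Ddx58 were Apol8, Gadd45b and Arf4. On log2(TPM + 1) their Pearson r with Ddx58 was 0.998 for Apol8, 0.996 for Gadd45b and 0.995 for Arf4, and 322 tested genes had an r above 0.95. After the mean of each group was taken off, r over the same 9 libraries was 0.825 for Apol8, 0.658 for Gadd45b and 0.721 for Arf4. These genes were picked by r over the same libraries, so the values are no separate check. They use TPM as deposited, where the scale of a library moves all its genes together, and its part was not tested. Apol8 averaged 1.65 ± 0.545 TPM in Rig1 KO (SD, n = 4) and 63.2 ± 7.22 TPM in WT (SD, n = 5). Arf4, a small GTPase of the Golgi, averaged 31.7 ± 2.68 TPM in Rig1 KO and 75.7 ± 3.79 TPM in WT, and Gadd45b, a stress-response gene, 60.5 ± 4.60 TPM in Rig1 KO and 242 ± 17.4 TPM in WT.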
